A study of Mus musculus with 6 samples.

Results

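The high-affinity IgE receptor and its proximal signalling proteins are described here by 10 genes, which were looked up by symbol in a table of 23608 gene rows. All 10 were found. The set consists of the receptor chains Fcer1a, Ms4a2 and Fcer1g, the kinases Lyn, Syk and Btk, and the adaptors Lat, Lat2, Lcp2 and Gab2. The cells were AE9a leukaemia cells, a mouse acute myeloid leukaemia driven by a truncated AML1-ETO fusion protein that is delivered with GFP by a retrovirus. All 6 samples carried 1 floxed Usp18 allele (Usp18+/f) and a Cre that tamoxifen activates, and grew in transplanted recipient mice. After the mice had become sick they received oil (n = 3, Usp18+/f) or tamoxifen (n = 3, Usp18+/D, with 1 allele deleted), and GFP+ Lin- c-Kit+ splenocytes were sorted 3 days after the first injection for bulk RNA-seq. The control cells therefore carried the floxed allele, the Cre and the fusion protein as well, and since no group received tamoxifen without the floxed allele, the drug and the deletion cannot be told apart. Each sample came from a separate mouse according to the study's methods. The methods also give 3 injections of oil or tamoxifen before this sort, and irradiated C57BL/6 recipients. For the study as a whole they give young adult mice of both sexes. Libraries are named by the numbers in the count table, oil 1, 3 and 4 and tamoxifen 1, 2 and 4.

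The receptor is known from mast cells and basophils, where its α-chain binds IgE, its β-chain amplifies the signal and a pair of γ-chains carries the signal inwards. When antigen crosslinks bound IgE, Lyn phosphorylates the activation motifs of the β- and γ-chains, Syk docks on the γ-chain motifs, and the adaptors Lat, Lat2, Lcp2 and Gab2 gather the enzymes that release calcium, activate Ras and PI3K and lead to degranulation. In the mouse, the α-chain reaches the cell surface only together with the other chains. All values here are transcript counts, so that protein amounts, surface receptor and phosphorylation were not measured.

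Deposited totals lay between 17118964 and 20741399 counts per library, and 3 counts corresponded to 0.145 to 0.177 CPM, which are counts scaled to a library of 1000000. Usp18, the gene targeted by Cre, had 9.12, 10.95 and 11.2 CPM in the oil libraries against 15.1, 28.02 and 19.4 CPM in those labelled tamoxifen. This is opposite to the lower dose that the label implies (log2 fold change 1.0, SE 0.23, edgeR adjusted p = 0.0739). The counts cover the whole gene, and the deleted part could not be read separately. Every direction below is therefore that of the libraries labelled tamoxifen. Tamoxifen 4 stood apart from the other two of its group: the correlation of log2 CPM across genes was 0.987 between tamoxifen 1 and 2, 0.970 and 0.973 between tamoxifen 4 and these, and 0.982 to 0.985 between tamoxifen 4 and the oil libraries. Results are given with and without it.

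Of the sorted phenotype, Kit was present in all 6 libraries (439 to 782 CPM) and so was the progenitor factor Myb (378 to 439 CPM). The granule enzyme genes Mpo and Elane were at no more than 0.207 CPM and at 0, and Ptprc, the common leukocyte antigen, Itgam and Cebpa reached no more than 0.679, 0.635 and 0.110 CPM (these 5 genes were chosen after their values were seen). Of 16 mast cell marker genes, 15 were detected above the count filter, and their summed level was 4450 to 4587 CPM in oil and 5028 to 10054 CPM in the libraries labelled tamoxifen. Mrgprb1 was at 0 in all libraries. Markers of B cells, of T and NK cells and of neutrophils summed to at most 0.878, 0.103 and 0.413 CPM in any library. Cd79a and Cd79b for B cells, Cd3e and Cd4 for T cells, and S100a9 and Camp for neutrophils were all below 1 CPM.

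The regulatory sequence just upstream of the receptor genes is shown first, since the transcripts of the receptor chains differed in both level and change. The windows run from 250 bases before to 50 bases after the RefSeq gene start (GRCm38.p6), are written 5′ to 3′ on the strand of the gene, and carry the GATA-factor motif GATAA, or its reverse complement TTATC, in capitals. The Fcer1a window lies at chr1:173227180-173227479, the Ms4a2 window at chr19:11623670-11623969 and the Fcer1g window at chr1:171234300-171234599, all on the minus strand.
Fcer1a: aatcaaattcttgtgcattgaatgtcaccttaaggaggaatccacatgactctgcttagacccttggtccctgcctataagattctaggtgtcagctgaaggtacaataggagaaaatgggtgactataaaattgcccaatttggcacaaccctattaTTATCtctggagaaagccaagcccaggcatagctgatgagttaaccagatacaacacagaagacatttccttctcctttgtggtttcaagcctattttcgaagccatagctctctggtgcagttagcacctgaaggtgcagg
Ms4a2: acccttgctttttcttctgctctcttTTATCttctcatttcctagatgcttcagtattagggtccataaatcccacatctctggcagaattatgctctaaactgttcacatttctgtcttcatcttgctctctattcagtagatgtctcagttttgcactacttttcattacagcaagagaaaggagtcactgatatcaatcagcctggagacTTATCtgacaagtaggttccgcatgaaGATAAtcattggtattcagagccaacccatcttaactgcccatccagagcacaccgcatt
Fcer1g: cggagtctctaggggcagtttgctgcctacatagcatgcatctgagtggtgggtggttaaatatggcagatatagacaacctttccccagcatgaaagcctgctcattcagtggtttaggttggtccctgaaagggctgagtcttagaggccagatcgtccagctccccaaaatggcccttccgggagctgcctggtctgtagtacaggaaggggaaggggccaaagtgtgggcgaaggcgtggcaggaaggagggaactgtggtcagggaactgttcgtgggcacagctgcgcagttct

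The Fcer1a window held 1 GATAA match, 92 bases before the gene start. Ms4a2 held 3, at 224, 37 and 10 bases before the start, and Fcer1g held 0. Of 32851 promoter windows of the same length, 25.4% held the motif on either strand. The E-box CANNTG was found 3 times in Fcer1a, 0 times in Ms4a2 and 2 times in Fcer1g, against 72.3% of all windows with at least 1 match. The purine-rich letters GAGGAA, which PU.1 and other ETS factors recognise, occurred 1 time in Fcer1a and 0 times in the other receptor windows (28.3% of all windows). Neither TTTCNNTTT, the core of an interferon response element (10.6% of all windows), nor TTCNNNGAA, a STAT motif (8.3%), occurred in the windows found for 7 of the 10 genes. A match says only that the letters are there.

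The receptor chains gave 3 different patterns. Fcer1a was 4.34-fold higher in the libraries labelled tamoxifen, Ms4a2 was high and had nearly the same level in all 6 libraries, and Fcer1g was close to the limit of detection in every one. Across the 10 genes, 9 passed the filter on low counts, 2 of these (Fcer1a and Gab2) were called higher by edgeR's quasi-likelihood test at an adjusted p under 0.05, and 0 were called lower. For all 11614 genes tested, 1.75% were called higher and 0.267% lower. Of the 9 genes, 6 had an unadjusted p under 0.05, against 20.6% of all genes tested. A positive fold change was found for 8, against 50.02% of all genes, and their median log2 fold change was 0.85 against 0.00 over all genes. The genes were chosen with earlier results of these data known, so that these shares only describe them.

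Fcer1a (ENSMUSG00000005339, chr1:173221284-173227214, GRCm38, minus strand) encodes the IgE-binding α-chain. Oil 1, 3 and 4 gave 68.2, 98.0 and 85.7 CPM, and tamoxifen 1, 2 and 4 gave 355, 552 and 188 CPM. The lowest library labelled tamoxifen was thus above the highest oil library, and tamoxifen 4 lay nearest to the controls. The means were 84.0 ± 14.96 and 365 ± 183 CPM (SD, n = 3 each). The log2 fold change was 2.12 (SE 0.35, edgeR adjusted p = 0.0381), with a 95% interval of 2.49- to 7.59-fold. Without tamoxifen 4 it was 2.43 (edgeR adjusted p = 2.53e-05). When any one of the other 5 libraries was left out, the call was lost, with log2 fold changes of 1.69 to 2.24 and edgeR adjusted p-values of 0.0692 to 0.202. By limma-voom the adjusted p was 0.0545 (log2 fold change 2.00).

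Ms4a2 (ENSMUSG00000024680, chr19:11615523-11623719, minus strand) encodes the β-chain, a membrane-spanning protein that amplifies the signal. The oil libraries gave 862, 909 and 917 CPM, and tamoxifen 1, 2 and 4 gave 830, 931 and 854 CPM. The groups overlapped, and the spread was small, with means of 896 ± 29.7 and 872 ± 53.0 CPM (SD, n = 3 each). The ratio of the groups was 0.973, with a 95% interval of 0.846 to 1.12, so that a rise of the size seen for Fcer1a lies outside the interval (log2 fold change -0.04, SE 0.09, edgeR adjusted p = 0.807). It was the sole member tested with a negative fold change, and tamoxifen 4 was not its lowest library.

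Fcer1g (ENSMUSG00000058715, chr1:171229572-171234365, minus strand) encodes the γ-chain, which this receptor shares with other Fc receptors and several C-type lectins. It received 7, 4 and 2 counts in oil and 5, 4.5 and 11 counts in the libraries labelled tamoxifen, or 0.103 to 0.394 and 0.266 to 0.608 CPM. The gene did not pass the filter, and no other annotated gene overlaps it. The groups overlapped. A fit without the filter gave a log2 fold change of 0.69 (edgeR adjusted p = 0.646), so that a difference was not detectable at this depth.

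**Figure D1:**
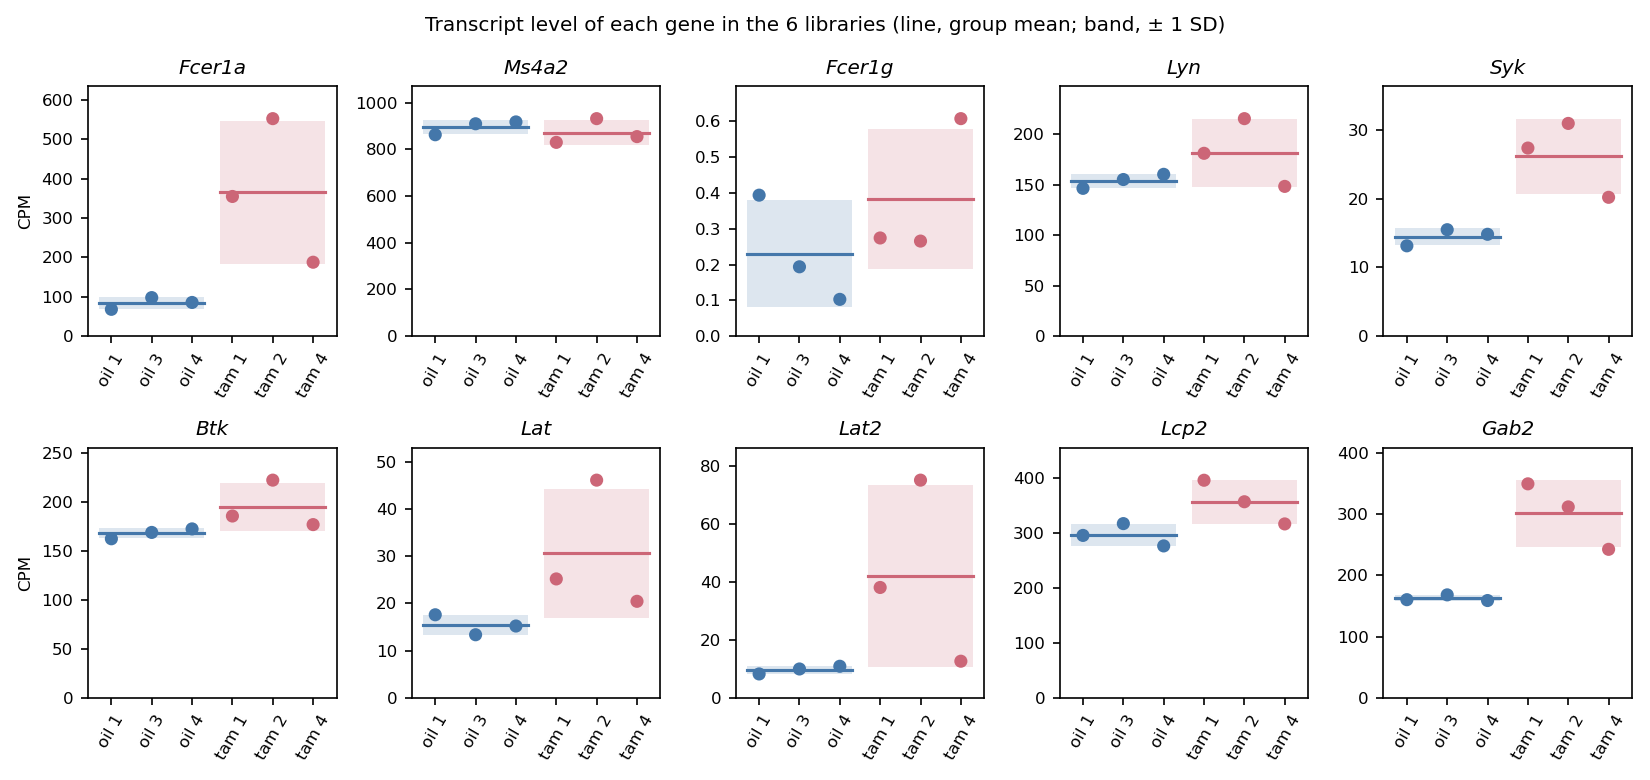
CPM of the 10 genes (y axes from 0, scaled per gene) in oil 1, 3 and 4 (blue) and tamoxifen 1, 2 and 4 (red); lines are group means and bands ± 1 SD over 3 libraries. Fcer1a and Gab2 lie higher in each library labelled tamoxifen, Ms4a2 stays between 830 and 931 CPM, and no Fcer1g value exceeds 0.608 CPM.

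Levels of different genes can be compared only per transcript length, and CPM were therefore divided by the length in kilobases of the longest annotated transcript. On this scale, Ms4a2 led in oil (361 to 384 CPM per kb), followed by Fcer1a (68.4 to 98.2), Lcp2 (75.8 to 86.9), Btk (63.9 to 67.9), Lyn (42.3 to 46.3), Gab2 (25.8 to 27.3), Lat (6.504 to 8.57), Lat2 (4.79 to 6.34), Syk (2.45 to 2.89) and Fcer1g (0.151 to 0.577). Fcer1a and Lcp2 were the only neighbours in this order whose ranges overlapped. In the libraries labelled tamoxifen, Fcer1a (188 to 554 CPM per kb) overlapped Ms4a2 (347 to 389). Lcp2 (86.8 to 109) overlapped Btk (69.6 to 87.5), Lyn (42.8 to 62.2) overlapped Gab2 (39.3 to 56.7), and Lat2 (7.35 to 43.8) overlapped Lat (9.96 to 22.5), Gab2 and Lyn. Syk (3.77 to 5.77) and Fcer1g (0.389 to 0.890) remained the lowest. Places in this order and the overlaps rest on the length used. The longest Lcp2 transcript has 3644 bases and the median 1465, against 998 and 912 for Fcer1a. For Btk they are 2540 and 1920. The order was not worked out with median lengths.

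The ratio of Fcer1a to Ms4a2 per length was 0.190, 0.258 and 0.224 in oil and 1.02, 1.42 and 0.527 in tamoxifen 1, 2 and 4. All 3 libraries labelled tamoxifen were above all oil libraries, with a mean difference of 2.04 on the log2 scale. The exact two-sided permutation test gave p = 0.1, the smallest that 20 arrangements of 3 against 3 allow (0.3 after adjustment over the 3 ratios tested). The ratio of Fcer1g to Ms4a2 was 0.000393 to 0.00160 in oil and 0.000999 to 0.00249 in the libraries labelled tamoxifen (difference 0.87 on the log2 scale, exact permutation p = 0.4). Fcer1g to Fcer1a gave 0.00175 to 0.00844 and 0.000703 to 0.00473 (difference -1.17, exact permutation p = 0.4). The longest Ms4a2 transcript has 2391 bases and the median of its annotated transcripts 1010. With median lengths the mean log2 ratio of Fcer1a to Ms4a2 was -3.28 in oil and -1.24 in the libraries labelled tamoxifen, so that the overlap of both genes in the latter rests on the length used. The difference between the groups is the same with either length.

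**Figure D2:**
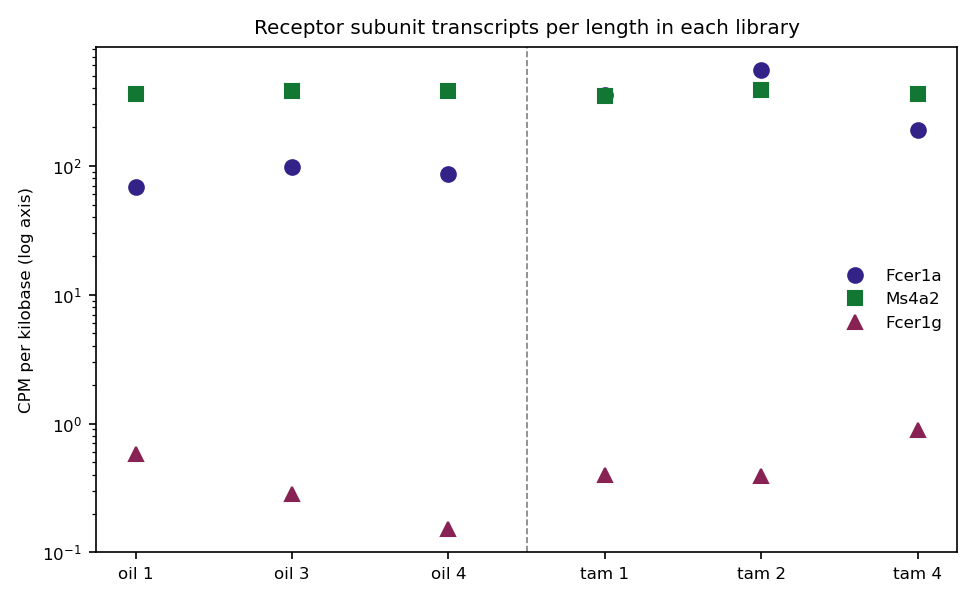
CPM per kilobase of the longest transcript (log axis) of Fcer1a (circles), Ms4a2 (squares) and Fcer1g (triangles) in the 6 libraries, with oil left of the dashed line. In the libraries labelled tamoxifen Fcer1a (188 to 554) lies near Ms4a2 (347 to 389) in tamoxifen 1, above it in tamoxifen 2 and below it in tamoxifen 4, whereas Fcer1g lies at no more than 0.890 in all libraries.

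Among the kinases, Syk, which binds the phosphorylated γ-chain and is needed for most later steps, had the largest fold change. Syk (chr13:52583173-52648792, plus strand) had 13.1, 15.5 and 14.8 CPM under oil, against 27.4, 30.9 and 20.2 CPM for tamoxifen 1, 2 and 4. The groups did not overlap, with tamoxifen 4 closest to oil. The log2 fold change was 0.85 (SE 0.17, 1.37- to 2.38-fold), which missed the threshold with an edgeR adjusted p of 0.0525 and passed it without tamoxifen 4 (1.01, edgeR adjusted p = 0.000377). It also passed with upper-quartile scaling (edgeR adjusted p = 0.0458), without the filter on low counts (edgeR adjusted p = 0.0275) and by DESeq2 (adjusted p = 0.000678).

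Lyn (chr4:3678115-3813122, plus strand), the Src-family kinase that starts the cascade and can also restrain it, was at 146, 155 and 160 CPM in oil and 181, 215 and 148 CPM in the libraries labelled tamoxifen. Tamoxifen 4 lay within the oil range. The log2 fold change was 0.24 (SE 0.13, edgeR adjusted p = 0.335), and 0.37 without tamoxifen 4 (edgeR adjusted p = 0.00950). Btk (chrX:134542336-134583570, minus strand), a Tec-family kinase that acts on phospholipase Cγ, was at 162, 169 and 172 CPM and 186, 222 and 177 CPM. Its groups did not overlap, though tamoxifen 4 was only slightly above oil 4. Its log2 fold change was 0.22 (SE 0.10, edgeR adjusted p = 0.277), and 0.28 without tamoxifen 4 (edgeR adjusted p = 0.0283).

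Of the adaptors, Gab2 passed the test. Gab2 (chr7:97081586-97308946, plus strand) recruits PI3K and is phosphorylated downstream of the receptor. Its level was 160, 168 and 159 CPM under oil, against 350, 312 and 243 CPM for tamoxifen 1, 2 and 4. All libraries labelled tamoxifen were above oil, and tamoxifen 4 was again the lowest of them. The fold change was 1.86, with a 95% interval of 1.502 to 2.29 (log2 0.89, SE 0.13, edgeR adjusted p = 0.0307). Without tamoxifen 4 it was 1.03 on the log2 scale (edgeR adjusted p = 2.38e-05). When any other library was left out the call was lost, with log2 fold changes of 0.77 to 0.91 and edgeR adjusted p-values of 0.0786 to 0.187. Gab2 was the member that limma-voom called (adjusted p = 0.0459).

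Lat2 (chr5:134600022-134615025, minus strand), also known as NTAL, is a transmembrane adaptor related to Lat. Its level was 8.22, 9.94 and 10.9 CPM under oil, against 38.1, 75.3 and 12.6 CPM for tamoxifen 1, 2 and 4. The group means differed 4.33-fold, but the spread among the libraries labelled tamoxifen was wide and tamoxifen 4 was just above oil. With all libraries, the log2 fold change of 2.11 (SE 0.54) had an edgeR adjusted p of 0.0914. Without tamoxifen 4 it was 2.55 (edgeR adjusted p = 9.41e-05), and without tamoxifen 2 it was 1.39 (edgeR adjusted p = 0.237). Of its 2621 exonic bases, 952 overlap Rfc2 on the opposite strand, and the strand setting of the counting is not given in the sources used here. Rfc2, a replication factor subunit, was at 236 to 276 CPM in oil and 217 to 311 CPM in the libraries labelled tamoxifen (log2 fold change 0.05, edgeR adjusted p = 0.844).

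Lat (chr7:126363824-126369570, minus strand), the transmembrane scaffold on which phospholipase Cγ assembles, was at 17.6, 13.4 and 15.2 CPM in oil and 25.2, 46.1 and 20.4 CPM in the libraries labelled tamoxifen. The groups did not overlap, and tamoxifen 2 was the highest. The log2 fold change was 0.99 (SE 0.29, edgeR adjusted p = 0.127), and 1.21 without tamoxifen 4 (edgeR adjusted p = 0.00262). Lcp2 (chr11:34046920-34092295, plus strand), which encodes the cytosolic adaptor SLP-76, was at 295, 317 and 276 CPM and 396, 357 and 316 CPM. The lowest library labelled tamoxifen lay just within the oil range. Its log2 fold change was 0.27 (SE 0.11, edgeR adjusted p = 0.222), and 0.35 without tamoxifen 4 (edgeR adjusted p = 0.00916). Lcp2 shares 282 of its 4459 exonic bases with 4930469K13Rik on the opposite strand, which was at no more than 1.51 CPM.

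**Figure D3:**
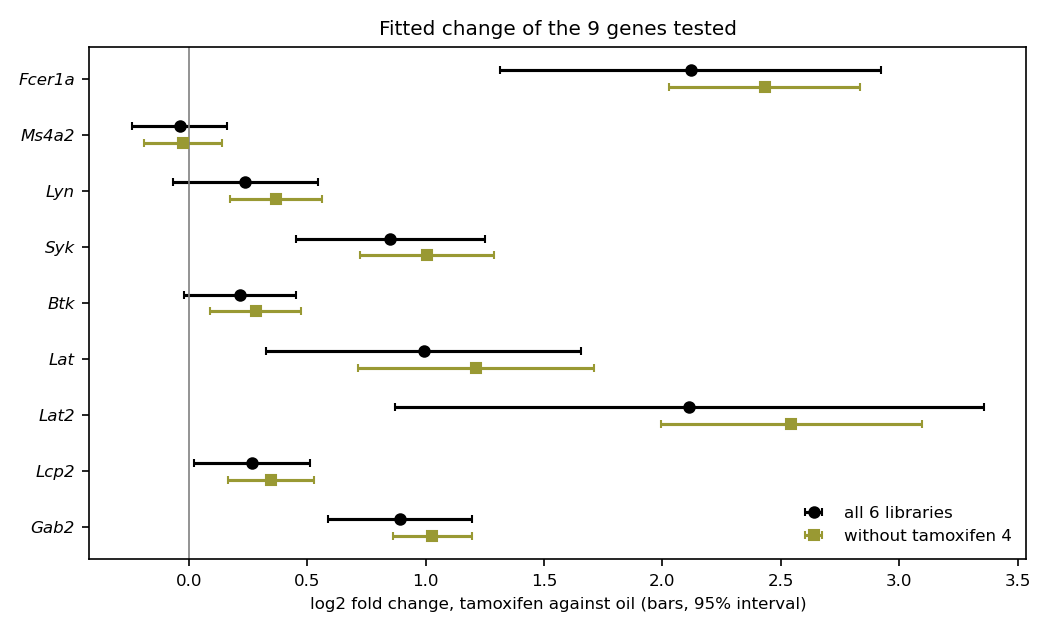
Fitted log2 fold change (x axis) of the 9 genes tested, libraries labelled tamoxifen against oil, with 95% intervals, from all 6 libraries (black circles) and without tamoxifen 4 (olive squares). Every estimate except that of Ms4a2 (-0.04) is above 0, and the intervals are narrower without tamoxifen 4.

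Of the 9 genes tested, 6 (Fcer1a, Syk, Btk, Lat, Lat2 and Gab2) had all libraries labelled tamoxifen above all oil libraries, and 0 had them all below, against 13.3% and 11.8% of all genes tested. In 8 of the 9, Ms4a2 being the exception, tamoxifen 4 was the lowest of the libraries labelled tamoxifen. Tamoxifen 2 was the highest for Fcer1a, Ms4a2, Lyn, Syk, Btk, Lat and Lat2, and tamoxifen 1 for Lcp2 and Gab2. Without tamoxifen 4, the 8 genes other than Ms4a2 were called higher. In that fit, 19.2% of all 11851 genes tested were called higher and 17.1% lower. Tamoxifen 4 was set apart on these same data and was the lowest of its group for these 8 genes. Calls made without it are therefore not separate support. DESeq2 with all 6 libraries called 5 of the genes higher (Fcer1a, Gab2, Syk, Lat and Lat2) where it called 6.14% of all genes higher. No gene of the 9 changed its direction under any alternative run.

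The summed mast cell markers moved with these genes, and were likewise highest in tamoxifen 2 and lowest, within that group, in tamoxifen 4. All 15 tested had a positive fold change (median log2 0.71) and 2 were called higher, against 1.75% of all genes tested (Tpsb2, a tryptase, log2 fold change 4.16, edgeR adjusted p = 0.0402, or 3.16 with 0.0692 without tamoxifen 2, and Mitf, a mast cell transcription factor, 0.71, edgeR adjusted p = 0.0434). An unadjusted p under 0.05 was found for 10 of the 15, against 20.6% of all genes. Without tamoxifen 4, 13 were called higher and 0 lower, where 19.2% and 17.1% of all genes were. The most abundant were Il1rl1, the IL-33 receptor (1619 to 1681 CPM in oil, 1598 to 2610 in the libraries labelled tamoxifen), and Hdc, which makes histamine (1058 to 1210 and 1194 to 2059 CPM). Neither passed the test (edgeR adjusted p = 0.224 and 0.157). Of 7 basophil markers, 6 were tested and 0 were called in either direction (1 with an unadjusted p under 0.05). The fold change was positive for 4 of the 6 (median log2 0.46). Without tamoxifen 4 all 7 were tested, and 2 were called higher (Mcpt8 and Itga2) and 1 lower (Gata1). The sum of the list was 462 to 506 CPM in oil and 442 to 459 CPM in the libraries labelled tamoxifen. Most of it came from Gata1 (347 to 375 and 304 to 348 CPM) and Cd200r3 (98.5 to 122 and 78.1 to 117 CPM), which had log2 fold changes of -0.16 and -0.10 (edgeR adjusted p = 0.312 and 0.727). The basophil protease gene Mcpt8 was at 0.460 to 0.900 CPM in oil and 1.04 to 4.87 CPM in the libraries labelled tamoxifen, without overlap (log2 fold change 2.05, edgeR adjusted p = 0.131, and 1.26 without tamoxifen 2). Prss34 was at no more than 1.36 CPM (1.09, edgeR adjusted p = 0.309). Itga2, named after its values were seen, did not pass the filter with all 6 libraries. It had at most 0.5 counts in each oil library and 29, 19.5 and 4 counts in tamoxifen 1, 2 and 4. The progenitor marker Cd34 rose from a range of 8.41 to 11.7 CPM in oil to one of 41.8 to 134 CPM (log2 fold change 3.27, edgeR adjusted p = 0.0232). In bulk samples, more cells of a type and more RNA per cell cannot be told apart, and the part that these markers have in the changes of the receptor genes was not tested.

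Of the erythroid and megakaryocyte markers, Itga2b was higher (log2 fold change 2.51, edgeR adjusted p = 0.0435, and 1.84 with 0.0761 without tamoxifen 2). The sum of the list ranged from 2574 to 3857 CPM in oil and from 2084 to 4759 CPM in the libraries labelled tamoxifen, mostly from Hba-a1 and Hbb-bs. Macrophage markers summed to 3.25 to 7.32 and 5.41 to 12.4 CPM, with 0 of 6 tested called (1 with an unadjusted p under 0.05). Vcam1, Mrc1 and C1qa were at no more than 4.28, 2.21 and 1.24 CPM.

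Genes that act after the receptor complex were then examined as a list of 95, of which 80 were tested. Of these, 4 were called higher and 0 lower. The fold change was positive in 53 of 80 (66.3%, against the same 50.02%), the median on the log2 scale was 0.18, and 33 had an unadjusted p under 0.05, against 20.6% of all genes. Without tamoxifen 4, 42 of 81 were called higher and 4 lower, where 19.2% and 17.1% of all genes were. None of the 4 calls was made when any other library was left out. This list too was chosen with earlier results of these data known, and its shares only describe it.

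Among 12 further kinases and adaptors tested, Tec was called. Tec, the founder of the family to which Btk belongs, was at 0.669 to 0.848 CPM in oil and 1.91 to 4.78 CPM in the libraries labelled tamoxifen (log2 fold change 2.19, edgeR adjusted p = 0.0434). Among 17 phospholipase C and calcium genes, Plcg2, which encodes phospholipase Cγ2, rose from a range of 0.591 to 1.88 CPM in oil to one of 5.69 to 11.04 CPM (log2 fold change 2.84, edgeR adjusted p = 0.0399). Neither exceeded 1.88 CPM in oil, and without oil 4 the log2 fold change of Plcg2 was 3.56 (edgeR adjusted p = 0.0786). The median of this second list was 0.30, and 14 of its 17 genes had a positive fold change.

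Of 17 PI3K, Ras and MAPK genes, 0 were called by edgeR (4 with an unadjusted p under 0.05, and 5 higher and 2 lower without tamoxifen 4), and the median was -0.07. Those with the largest fold changes in either direction were Rasgrp4, a Ras activator found in mast cells (0.69, edgeR adjusted p = 0.225), the PI3K subunit Pik3cd (0.50, edgeR adjusted p = 0.0670) and Mapk8, a stress-activated kinase (-0.29, edgeR adjusted p = 0.317). Of 20 negative regulators tested, 2 were called higher and the median was 0.62. These were Dok3, an adaptor that restrains immunoreceptor signals (0.978 to 1.502 CPM in oil, 3.32 to 13.05 CPM in the libraries labelled tamoxifen, log2 fold change 2.56, edgeR adjusted p = 0.0465), and Spred1, an inhibitor of Ras signalling (23.8 to 35.3 and 55.7 to 84.4 CPM, 1.12, edgeR adjusted p = 0.0399). Without tamoxifen 2 the log2 fold change of Dok3 was 1.93 (edgeR adjusted p = 0.103). Of 14 genes of granule release, 0 were called by edgeR (4 with an unadjusted p under 0.05, and 6 higher and 1 lower without tamoxifen 4). Cplx2, a complexin of the fusion machinery, had a log2 fold change of 2.14 (edgeR adjusted p = 0.0845), and the syntaxin Stx3 one of 0.75 (edgeR adjusted p = 0.155).

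**Figure D4:**
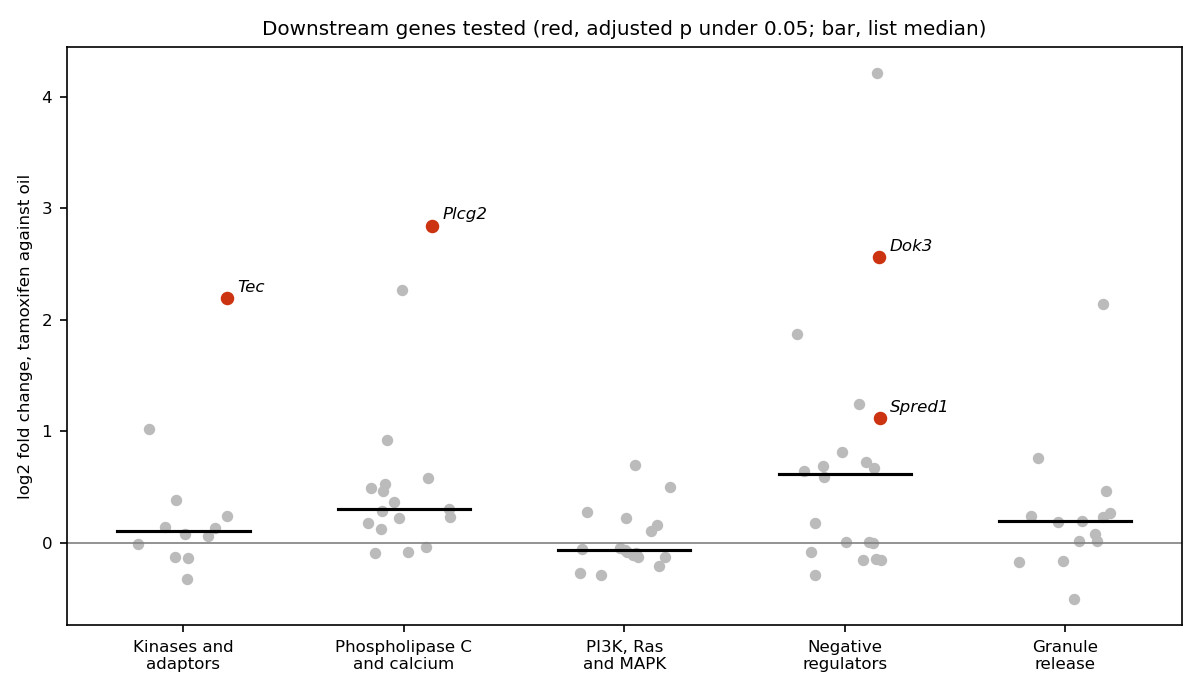
Log2 fold change (y axis), libraries labelled tamoxifen against oil, of the 80 downstream genes tested, by list; each point is a gene, red points have an edgeR adjusted p under 0.05 and bars are list medians. The 4 genes called, Tec, Plcg2, Dok3 and Spred1, lie above 0, and the medians range from -0.07 to 0.62.

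Other Fc receptors and the receptors that also use the γ-chain were compared with Fcer1a. Of 12 other Fc receptor genes, 3 were tested and 0 called by edgeR (3 with an unadjusted p under 0.05, all 3 higher without tamoxifen 4). Fcgr3, a low-affinity IgG receptor that pairs with the γ-chain, was at 15.3, 14.9 and 16.3 CPM in oil and 82.3, 160 and 25.2 CPM in the libraries labelled tamoxifen (log2 fold change 2.52, edgeR adjusted p = 0.0655). As for Lat2, tamoxifen 4 lay close to oil, and without tamoxifen 2 the log2 fold change was 1.80 (edgeR adjusted p = 0.141). The inhibitory receptor Fcgr2b had a log2 fold change of 0.69 (edgeR adjusted p = 0.186), and Trim21, a cytosolic antibody receptor, one of 0.36 (edgeR adjusted p = 0.187). Of 11 partners of the γ-chain, 3 were tested and 1 was called. This was Clec4e, the glycolipid receptor Mincle, which rose from a range of 3.35 to 4.79 CPM in oil to one of 15.6 to 72.5 CPM (log2 fold change 3.34, edgeR adjusted p = 0.0330, and 2.70 with 0.0622 without tamoxifen 2). Fcer1g, the chain that these receptors have in common with Fcer1a, stayed at or below 0.608 CPM in the same libraries.

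Among 23 relatives of the 10 genes, 11 were tested and 2 were called (4 with an unadjusted p under 0.05, and 4 higher and 2 lower without tamoxifen 4). Txk, a kinase of the Tec family, rose from a range of 0.360 to 0.872 CPM in oil to one of 3.51 to 8.70 CPM (log2 fold change 3.27, edgeR adjusted p = 0.0307), and Src, the founder of Lyn's family, from a range of 0.929 to 1.49 CPM to one of 3.32 to 19.1 CPM (3.12, edgeR adjusted p = 0.0466, and 2.35 with 0.0971 without tamoxifen 2). The calls of Tpsb2, Mitf, Cd34, Itga2b, Clec4e, Txk and Src were lost when any library other than tamoxifen 4 was left out. Of the relatives of the γ-chain, Cd247, the ζ-chain of the T cell receptor complex, was at 43.3 to 50.2 CPM in oil and 33.8 to 47.9 CPM in the libraries labelled tamoxifen, and Tyrobp, another activating adaptor, at 0.751 to 1.16 and 1.49 to 7.62 CPM (both chosen after their values were seen). Gab1, a relative of Gab2, went the other way without overlap, from 17.6 to 20.4 CPM in oil to 8.92 to 17.3 CPM. Its log2 fold change was -0.64 (edgeR adjusted p = 0.202). Gab1 and Lck, also named after their values were seen, were the 2 called lower without tamoxifen 4.

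The genes whose profile over the 6 libraries came closest to that of Fcer1a were Spns3, Creb3l1, which encodes a transcription factor held in the endoplasmic reticulum, and Tmem154. Their root mean square differences in centred log2 CPM were 0.145, 0.149 and 0.175, among 11138 genes compared. For Ms4a2, they were Papd4, a poly(A) polymerase, Gtpbp3, a mitochondrial tRNA-modifying enzyme, and Xpnpep1, an aminopeptidase, with differences of 0.0162, 0.0213 and 0.0234. With 6 libraries, likeness of this kind is a description of the profile only.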

How the data were processed

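The authors deposited 1 table of expected counts per gene, in multiples of 0.5, for 6 bulk RNA-seq libraries of sorted leukaemia cells. The submitters' processing notes name STAR, DESeq2 and mm10, and the counting program, strand setting and annotation are not given in the sources used here. Per the labels the library kit was Nextera DNA Flex, whereas the study's methods name a sequencing provider. Oil 3 and tamoxifen 2 of the table have other numbers in the sample titles and were used as members of their groups only.

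Counts were rounded, filtered with filterByExpr (11614 of 23608 genes tested), TMM-scaled and fitted with edgeR 4.0.16 (quasi-likelihood F-test, Benjamini-Hochberg over all genes tested, R 4.3.3). The main fit used both groups and no covariate. CPM are the counts over TMM-scaled library sizes. Lengths and positions came from GENCODE M21 (GRCm38) and promoters from RefSeq. DESeq2 1.42.0, limma-voom 3.58.1, other scalings and filters, a replicate block and omission of each library were the alternatives. The method was tested on simulated data with the same spread in both groups and no outlying library. That test therefore does not cover a library that stands apart, as tamoxifen 4 did. P-values measure the spread between these 3 samples per group, intervals of 95% assume it to be alike in both, and totals set the counting error.

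The 10 genes and all lists were chosen with earlier results of these data known. Named were the 10 genes, Usp18, in each list the genes called (at most 5) or otherwise the 3 with the largest fold change, for marker lists the 2 with the highest mean, and the 3 nearest profiles of Fcer1a and Ms4a2. ATAC-seq was not analysed here, and a few items that this rule names are not reported here.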

Additional observations from a re-analysis of the deposited data

How the results depend on the processing

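With DESeq2, 713 genes were called higher and 231 lower in place of 203 and 31, with limma-voom 48 and 6, without the filter on low counts 372 and 61, and with a mean of at least 50 counts 120 and 17. Leaving out 1 library gave 8 to 2278 higher and 0 to 2024 lower, the upper values without tamoxifen 4. Of the receptor and proximal genes, DESeq2 called 5 higher, limma-voom 1, the fit without a filter 4, and the fits without 1 library 0 to 8. Of the downstream genes these were 16, 0, 11 and 0 to 42, and 2 with a mean of at least 50 counts. DESeq2 and the fit without a filter each called 1 downstream gene lower, and the fits without 1 library 0 to 4. With median transcript lengths the mean log2 ratio was -3.28 in oil and -1.24 in tamoxifen for Fcer1a to Ms4a2, and -11.6 and -10.7 for Fcer1g to Ms4a2. The sign turned, at no adjusted p below the threshold, for Cd200r3 without tamoxifen 4 (-0.20 to 0.0640 over the libraries left out), for Papd4 without tamoxifen 1 (-0.0710 to 0.00354) and for Xpnpep1 with upper-quartile scaling (0.00400), a mean of at least 50 counts (2.93e-05), without oil 4 (0.00892) and without tamoxifen 1 (-0.0568 to 0.0278 over the libraries left out). The cause of these changes was not tested.

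Numbers 1 and 4 occur in both groups. Deviations of same-numbered libraries from their group means had correlations of -0.13 and 0.06. So few pairs cannot show whether the shared numbers mark a pairing, and the main fit used none. A replicate block called 215 genes higher and 26 lower, among them 3 of the receptor and proximal genes (Fcer1a, Gab2 and Lat2), on 1 residual degree of freedom. With 3 libraries a group, genes of a few counts such as Fcer1g are limited by counting error.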

Other observations

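Runx1 was at 545 to 582 CPM in oil and 638 to 809 CPM in the libraries labelled tamoxifen (log2 fold change 0.35, edgeR adjusted p = 0.134), and Spi1, which encodes PU.1, was at 68.2 to 76.7 and 72.1 to 97.5 CPM (0.27, edgeR adjusted p = 0.282). Cd48, a surface protein of haematopoietic cells, was at 4.90, 7.66 and 8.13 CPM in oil and 29.1, 36.8 and 17.4 CPM in tamoxifen 1, 2 and 4 (log2 fold change 2.00, edgeR adjusted p = 0.0313). These 3 genes were chosen after their values were seen.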
